A study of Mus musculus with 2 samples.

Results

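Most Slc25a genes encode carriers of the inner mitochondrial membrane, and their transcripts were followed here by long-read RNA sequencing in the hearts of aged mice. The members were the annotated protein-coding genes whose symbol begins with Slc25a, chosen by name and not by any measured value. The annotation holds 47 such genes, of which 39 had reads in at least 1 library, among 15031 annotated genes with reads. The study consisted of 1 group of 2 libraries, replicate 1 and replicate 2, made from 2 µg of RNA each from female B6CASTF1/J mice, the first-generation hybrid of C57BL/6J and CAST/EiJ, at 18 to 20 months of age. No treatment or genotype was compared, so the design allows a description of levels and transcript forms and a test of how far both libraries differed. The labels number the libraries as biological replicates 1 and 2, each with its own biosample, yet both point to a single donor entry. Any SD given here (n = 2) therefore covers only the spread between these samples, which may not be a spread between animals.

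Mitochondrial carriers share a fold built of a repeated module, and each moves a small set of solutes between the cytosol and the matrix. In heart muscle, which makes most of its ATP by oxidative phosphorylation, the adenine nucleotide carriers exchange matrix ATP for cytosolic ADP and the phosphate carrier brings in the phosphate for ATP synthesis. Other members carry reducing equivalents, acylcarnitines, amino acids, cofactors and iron.

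Replicate 1 had 630211 and replicate 2 had 664319 reads on mouse transcript models. Levels are given as CPM, reads per 1000000 mouse reads after TMM scaling. A long read stands for 1 cDNA molecule, so the levels were not divided by transcript length, and any preference of the library for short cDNAs was not corrected. A single read equalled 1.61 CPM in replicate 1 and 1.48 CPM in replicate 2, and a gene without reads could lie at up to 4.83 and 4.45 CPM (3 reads, counting error only). The heart muscle markers Myh6, Tnnt2, Tnni3, Actc1, Pln and Ryr2 summed to 34340 CPM in replicate 1 and 31587 CPM in replicate 2. The libraries differed more in several other tissue markers. Red blood cell markers summed to 30391 CPM in replicate 1 and 11784 CPM in replicate 2. Atrial markers stood at 1806 and 4318 CPM, fat markers at 611 and 1437 CPM and airway markers at 0 and 597 CPM, replicate 1 and then replicate 2. In tissue RNA, fewer cells of a type and less RNA per cell cannot be told apart.

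The difference between the libraries was tested for annotated genes with 10 reads or more in all, with the scaled library sizes as expectation, in a two-sided exact binomial test adjusted over 7545 genes by the Benjamini-Hochberg method. The test compares these libraries with counting error as the only spread, and says nothing of conditions. Of these genes 156, or 2.07%, were called at an adjusted p under 0.05. Of the 6 heart muscle markers, 2 were called higher in replicate 1, as were 0.861% of all genes tested. These were Myh6, with a ratio of 1.13 (replicate 1 over replicate 2), and Pln, with a ratio of 1.06. In the other direction 0 of the 6 were called.

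The family drew 22177 reads in replicate 1 and 23491 reads in replicate 2, which was 3.52% and 3.54% of all mouse reads. The members summed to 35278 ± 579 CPM (SD, n = 2). Slc25a4 alone gave 83.1% of the family's reads in replicate 1 and 83.9% in replicate 2. Slc25a5 gave 8.42% and 7.64%, Slc25a3 4.28% and 4.06%, and Slc25a11 1.80% and 1.71%. All other members together had 521 reads in replicate 1 and 626 reads in replicate 2. Of the 47 genes, 36 had reads in both libraries, 26 had at least 5 reads in each, and 4 had at least 100 in each. The remaining levels therefore rested on few reads.

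**Figure D1:**
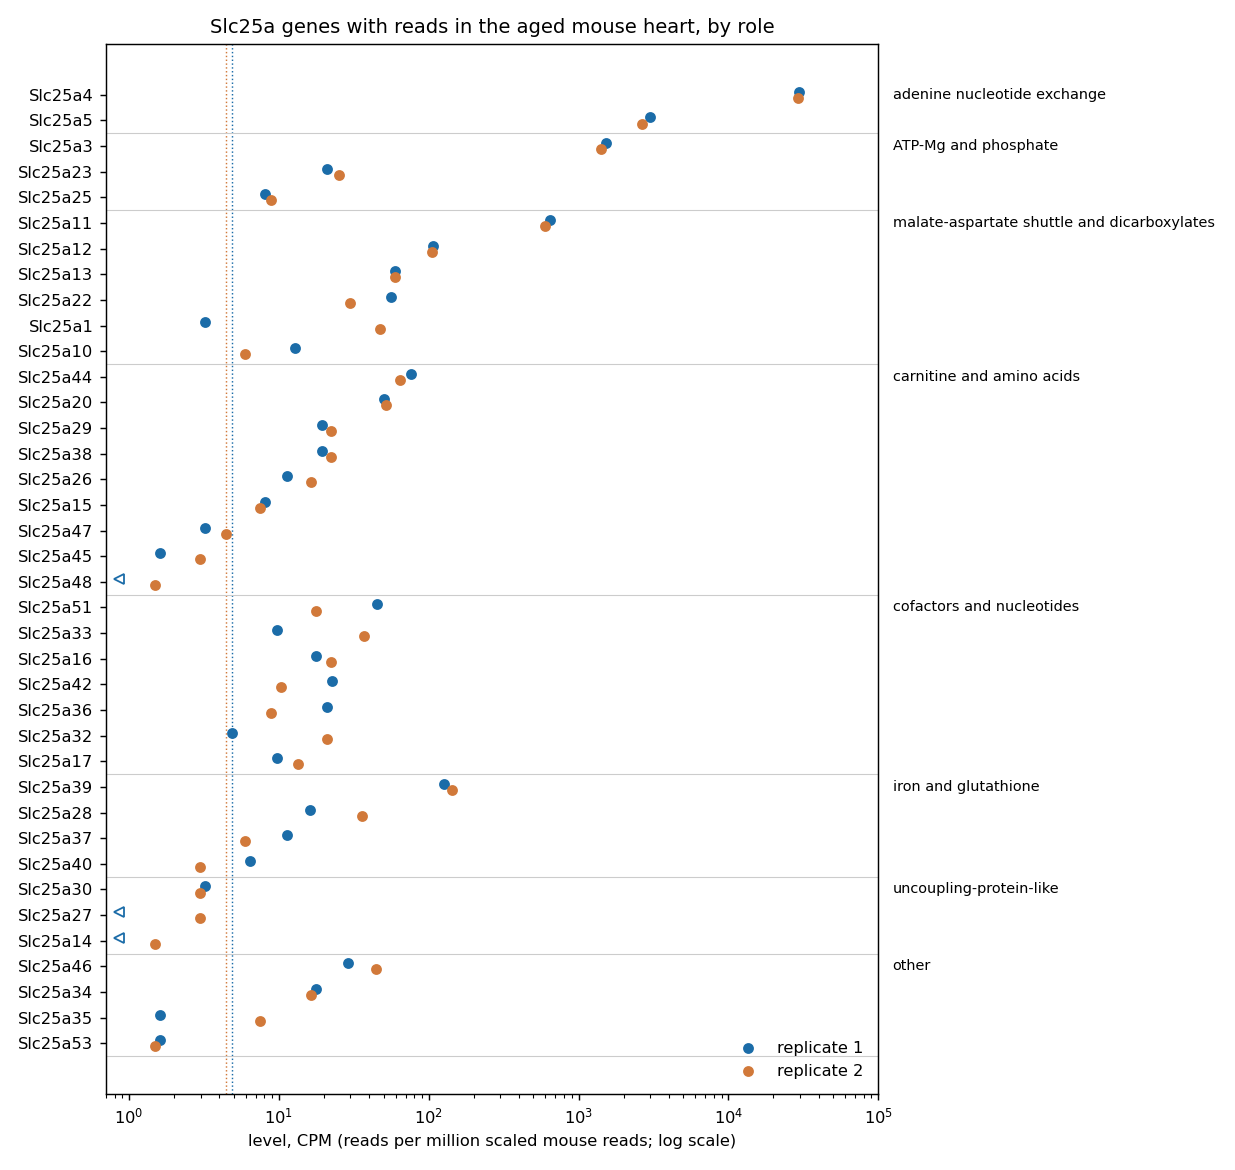
Level of the reported Slc25a genes with reads, in CPM on a log axis, grouped by role; each point is 1 library, dotted lines mark the level of 3 reads in each library and open triangles mark a library without reads. Slc25a4, with 29672 CPM in replicate 1 against 29264 CPM in replicate 2, stands about a factor of 10.4 above Slc25a5, and most members lie below 100 CPM.

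Among the adenine nucleotide carriers, Slc25a4, the muscle and heart form of the ADP/ATP translocase, had 18439 reads in replicate 1 and 19715 reads in replicate 2. It ranked 1 among all annotated genes by mean level, at 29468 ± 289 CPM (SD, n = 2), ahead of Cox4i1, a subunit of cytochrome c oxidase, at 15152 CPM. Slc25a5, the more widely expressed form, had 1868 reads in replicate 1 and 1795 reads in replicate 2, a level of 2835 ± 242 CPM and rank 43. Reads of Slc25a4 outnumbered those of Slc25a5 by 9.87 to 1 in replicate 1 and by 10.98 to 1 in replicate 2. Counting only reads that matched annotated transcripts, it was 27.3 to 1 and 29.2 to 1. Slc25a5 then stood at 757 CPM, below Slc25a3 at 1702 CPM and Slc25a11 at 810 CPM. Slc25a31, the form known from testis, had no listed reads in either library.

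The reads of both adenine nucleotide carriers fell into 2 kinds. Slc25a4 lies on chromosome 8 (mm10, minus strand) and Slc25a5 on chromosome X (plus strand), and each has 4 exons and 3 introns. All coordinates given here are of mm10. In Slc25a4, 9146 reads of replicate 1 and 9022 reads of replicate 2 crossed 3 introns, nearly all of them matching the annotated transcript Slc25a4-201. Another 9162 and 10554 reads crossed no intron. Reads with 1 or 2 introns were few, at 18 and 108 in replicate 1 and at 37 and 96 in replicate 2. The single-exon reads were assigned, but for 1 read, to a model that ends exactly at the borders of the last annotated exon (chr8:46206797-46207620). TALON, the program named in the deposited models, places reads into a class relative to the annotation and may set their ends to annotated ends, so the model's length is not the length of the reads. Single-exon models made up 49.7% of Slc25a4 reads in replicate 1 [49.0 to 50.4] and 53.5% in replicate 2 [52.8 to 54.2]. Bracketed ranges are exact Clopper-Pearson 95% intervals and cover counting error only.

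An unannotated intron of Slc25a4 (chr8:46208473-46210997) spans the whole of exon 2 and parts of exons 1 and 3. Its donor lies within exon 1, upstream of the annotated donor of intron 1 (annotated intron chr8:46209509-46210811). Its acceptor lies within exon 3, downstream of the annotated acceptor of intron 2 (annotated intron chr8:46208539-46209021). This unannotated intron was in 11 reads of replicate 1 and 8 reads of replicate 2. That was 0.12% [0.06 to 0.215] and 0.0886% [0.0382 to 0.174] of the reads set against the annotated first intron.

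Slc25a5 showed the same split with a larger single-exon portion. The model equal to its last exon (chrX:36798387-36798807) held 1526 of 1868 reads in replicate 1, or 81.7% [79.9 to 83.4]. In replicate 2 it held 1476 of 1795 reads, or 82.2% [80.4 to 84.0]. Reads with 3 introns numbered 336 and 315, and reads with 1 or 2 introns numbered 6 in replicate 1 and 4 in replicate 2. Among 703 protein-coding genes that have introns and 100 reads or more per library, the median share of single-exon incomplete matches was 0.46% and the upper quartile 3.25%. Only 17 of the 703 genes, or 2.42%, reached 50%. Slc25a5 ranked 3 and Slc25a4 ranked 16 in that order, whereas Slc25a3 and Slc25a11 had 0 such reads of 949 and 400 in replicate 1 and 0 of 953 and 402 in replicate 2. The share leaves out the genomic class, which holds reads within a gene's span that do not follow its splice pattern. That class held 144 reads of Slc25a3 and 43 of Slc25a11 in replicate 1, and 142 and 38 in replicate 2. It held 0 reads of Slc25a4 and Slc25a5. The contrast and the order therefore depend on the class given to reads.

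**Figure D2:**
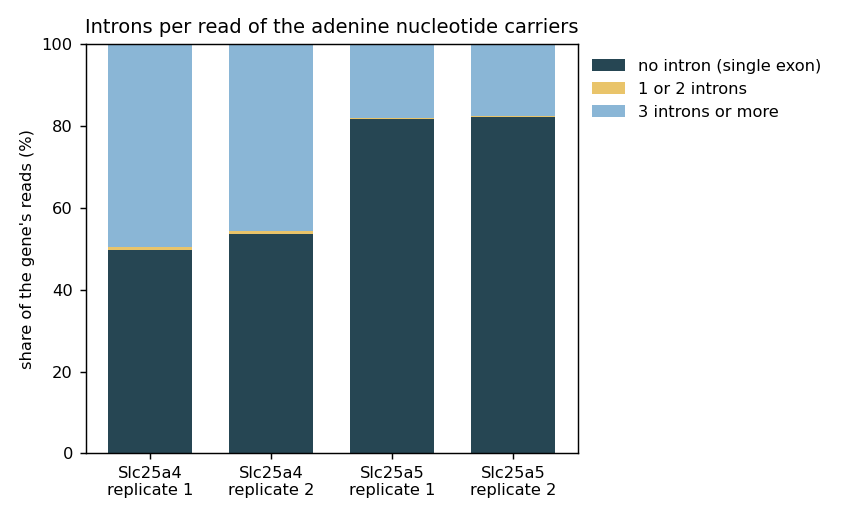
Share of reads of Slc25a4 and Slc25a5 by the number of introns each read's model holds, in percent, with 1 bar for each gene and library. Single-exon models took 49.7% and 53.5% of Slc25a4 reads and 81.7% and 82.2% of Slc25a5 reads, and models with 1 or 2 introns are barely visible.

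Both genes have the same coding exon lengths, 111, 487, 141 and 155 bases, for 894 coding bases in all before the stop codon. They share 692 of these bases, or 77.4%. The coding bases of the last exon are shown because the models of both kinds of read hold this exon. A single-exon read may itself cover only part of it. There, 123 of 155 bases, or 79.4%, were identical. The lines give the coding part of exon 4 from the transcript sequences of GENCODE M21, with the bases that differ between both genes in capitals; Slc25a4 is at chr8:46207466-46207620 on the minus strand and Slc25a5 at chrX:36798387-36798541 on the plus strand.
Slc25a4 coding part of exon 4: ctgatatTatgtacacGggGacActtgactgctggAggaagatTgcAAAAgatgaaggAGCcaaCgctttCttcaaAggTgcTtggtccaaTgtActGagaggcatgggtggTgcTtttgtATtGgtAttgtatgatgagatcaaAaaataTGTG
Slc25a5 coding part of exon 4: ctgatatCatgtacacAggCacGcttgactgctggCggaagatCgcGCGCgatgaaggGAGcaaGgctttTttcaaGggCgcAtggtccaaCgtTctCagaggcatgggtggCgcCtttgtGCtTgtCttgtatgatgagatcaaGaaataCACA
Differing bases were spread along the coding part of the exon, and the rest of the exon was not compared. Annotated pseudogenes at least 90% identical to the main transcript over 300 bases or more were found for 4 of the members searched. There were 7 for Slc25a5, with up to 98.3% identity. Slc25a36 had 1 with 99.6% identity, Slc25a40 had 1 with 96.3% and Slc25a51 had 1 with 93.4%. None of these copies had listed reads in either library.

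Slc25a3, the phosphate carrier, had 949 reads in replicate 1 and 953 reads in replicate 2, a level of 1471 ± 79.6 CPM (SD, n = 2) and rank 105 among all genes. It carries a pair of mutually exclusive exons. Exon 3A, of 125 bases, is known from heart and skeletal muscle, and exon 3B, of 122 bases, from other tissues. Both are on chromosome 10 (minus strand), 3A at chr10:91122207-91122331 in transcript Slc25a3-206 and 3B at chr10:91121922-91122043 in transcript Slc25a3-201. They are shown because the choice between them sets the isoform, with the bases that differ or face a gap in a global alignment in capitals.
Slc25a3 exon 3A: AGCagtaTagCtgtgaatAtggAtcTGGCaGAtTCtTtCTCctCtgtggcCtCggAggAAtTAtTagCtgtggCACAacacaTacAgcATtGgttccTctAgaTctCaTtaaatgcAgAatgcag
Slc25a3 exon 3B: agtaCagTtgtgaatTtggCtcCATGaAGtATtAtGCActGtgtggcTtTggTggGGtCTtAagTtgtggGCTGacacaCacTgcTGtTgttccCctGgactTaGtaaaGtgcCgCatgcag
The exons matched at 80 of 126 aligned positions, or 63.5%, and differed in length by 3 bases, so a switch between them does not shift the reading frame.

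Of the Slc25a3 reads with only 1 of both exons, 763 of 785 in replicate 1 held exon 3A, a share of 97.2% [95.8 to 98.2]. In replicate 2 it was 759 of 783 reads, a share of 96.9% [95.5 to 98.0]. The shares did not differ beyond counting error (two-sided Fisher's exact test, p = 0.767). Exon 3B alone was present in 22 reads of replicate 1 and 24 reads of replicate 2, and 1 read of replicate 2 held both exons. Neither exon was in 164 and 169 reads. Most of these, 144 and 142, were in the genomic class, which gathers reads within a gene's span that do not follow its splice pattern, at chr10:91116574-91117011 near the gene's 3′ end. The annotated retained-intron transcript Slc25a3-204 held 13 reads in replicate 1 and 15 reads in replicate 2. Over all reads of the gene, exon 3A without 3B was seen in 80.4% and 79.6%.

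A small part of Slc25a3 reads used a splice donor that the annotation lacks. It lies 4 bases downstream of the annotated donor of intron 1 (annotated intron chr10:91123707-91123915) and was used with the annotated acceptor in 14 reads of replicate 1 and 12 reads of replicate 2. That was 1.92% [1.05 to 3.19] and 1.63% [0.844 to 2.83] of the reads crossing either form. The same donor joined to an acceptor 3 bases further downstream appeared in 12 and 10 reads. The class that TALON gave to these chains of introns differed between the libraries for the same chain, so classes of rare new models were not compared.

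The ATP-Mg/phosphate carriers, which adjust the matrix content of adenine nucleotides and are mostly regulated by calcium, had few reads. Slc25a23 had 13 reads in replicate 1 and 17 reads in replicate 2 (23.1 ± 3.05 CPM) and Slc25a25 had 5 and 6 reads. Slc25a24 and Slc25a41 had no listed reads, which allows up to 4.83 CPM in replicate 1 and 4.45 CPM in replicate 2.

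The carriers of the malate-aspartate shuttle, which moves reducing equivalents from cytosolic NADH into the matrix, summed with other dicarboxylate and related carriers to 863 ± 26.3 CPM. Slc25a11, the oxoglutarate/malate carrier, led with 400 reads in replicate 1 and 402 reads in replicate 2 (620 ± 33.2 CPM). Slc25a12, the aspartate/glutamate carrier known as aralar and the main form of excitable tissues, had 66 and 71 reads (106 ± 0.579 CPM). Slc25a13, the other aspartate/glutamate carrier, known as citrin and prominent in liver, had 37 and 40 reads (59.5 ± 0.118 CPM). The intervals of Slc25a12 and Slc25a13 between the libraries were wide at this depth, from 0.71-fold to 1.43-fold for Slc25a12 and from 0.624-fold to 1.61-fold for Slc25a13 (replicate 1 over replicate 2). Slc25a22, a glutamate carrier, had 35 reads in replicate 1 and 20 reads in replicate 2. Slc25a10, the dicarboxylate carrier, had 8 and 4. The second glutamate carrier Slc25a18 and the oxodicarboxylate carrier Slc25a21 had no listed reads. The enzymes of the same shuttle lay between the levels of Slc25a12 and Slc25a5 on the CPM scale, from 302 ± 34.1 CPM for Got2, the mitochondrial aspartate aminotransferase, to 1975 ± 13.3 CPM for Mdh1, the cytosolic malate dehydrogenase. Of the 4 enzymes Mdh1, Mdh2, Got1 and Got2, 0 passed the test between the libraries, and together they reached 4551 CPM in replicate 1 against 4302 CPM in replicate 2.

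Slc25a13 had 1 unannotated junction with at least 2 reads in each library. Most of its reads that crossed intron 9 used an acceptor 3 bases downstream of the annotated place, with the intron at chr6:6110022-6113937 in place of chr6:6110025-6113937 (minus strand). This held for 24 of 28 reads in replicate 1, or 85.7% [67.3 to 96.0]. In replicate 2 it held for 18 of 24 reads, or 75% [53.3 to 90.2]. The annotated form was in 4 reads of replicate 1 and 6 reads of replicate 2. The 3 bases are the first codon of exon 10, since 933 coding bases precede it. The leading model of the gene was therefore a new chain of introns (20 and 17 reads), ahead of the annotated Slc25a13-201 (4 and 5 reads). The lines show 27 bases on each side of the exon 9 to exon 10 junction in the annotated and the new form, from GENCODE M21, with the 3 bases that the new form lacks in capitals.
Slc25a13 annotated junction: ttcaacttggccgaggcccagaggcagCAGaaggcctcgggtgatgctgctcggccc
Slc25a13 new junction: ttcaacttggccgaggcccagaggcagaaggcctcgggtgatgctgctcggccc
The same 3 bases also end exon 9, so the new form reads as a single copy of a repeated triplet, and a read that lacks either copy has the same sequence. The deposited counts do not separate the C57BL/6J and CAST/EiJ alleles, and whether the reads of the new form came from 1 allele was not tested.

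**Figure D3:**
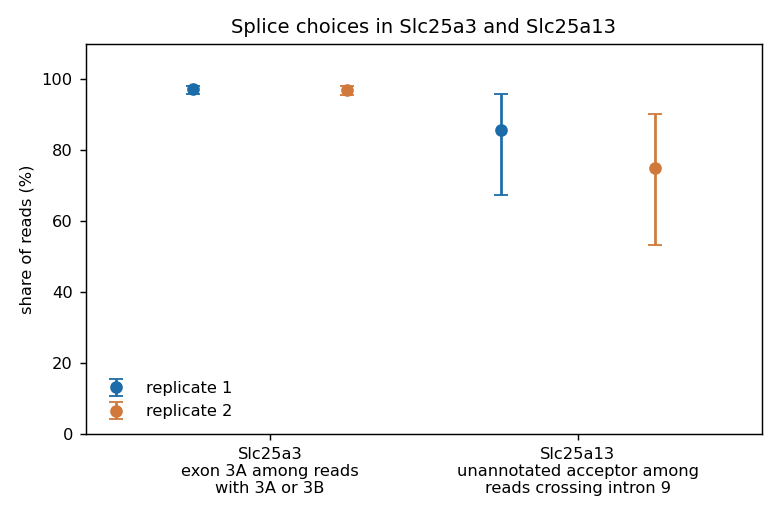
Share of reads with the named splice form, in percent, for each library; bars are exact 95% intervals. Exon 3A of Slc25a3 stands at 97.2% and 96.9% of reads with only 1 of both exons, and the unannotated acceptor of Slc25a13 at 85.7% and 75% of reads crossing intron 9, with wider intervals from 28 and 24 reads.

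Slc25a22 had no dominant form. A new combination of annotated splice sites held 12 of 35 reads in replicate 1 and 4 of 20 in replicate 2. The annotated retained-intron transcript Slc25a22-221 held 8 reads in each library and so had as many in all, 16. The first intron of its most read coding transcript, Slc25a22-203, was crossed by 3 reads in replicate 1 and 1 read in replicate 2, against 27 and 12 reads at the last intron.

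Reads crossed most other carriers from end to end. Annotated introns of Slc25a11 were crossed by 87.0% to 89.0% of the gene's reads in replicate 1 and by 88.3% to 90.5% in replicate 2. Those of Slc25a20 were crossed by 83.9% in replicate 1 and by 85.7% to 88.6% in replicate 2. In Slc25a3 the share was 84.72% and 84.99% at the last intron and 75.6% and 76.1% at the first. The share at the first intron leaves out reads with the unannotated donor. With the annotated acceptor these numbered 14 in replicate 1 and 12 in replicate 2, and with the other acceptor 12 and 10. In Slc25a12, whose coding sequence of 2031 bases is the longest in the family, 81.8% and 80.3% of reads crossed the last intron and 54.5% and 67.6% crossed the first. Reads of Slc25a4 and Slc25a5 did not decline along the gene in this way, and nearly every read that crossed the last intron also crossed the first.

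**Figure D4:**
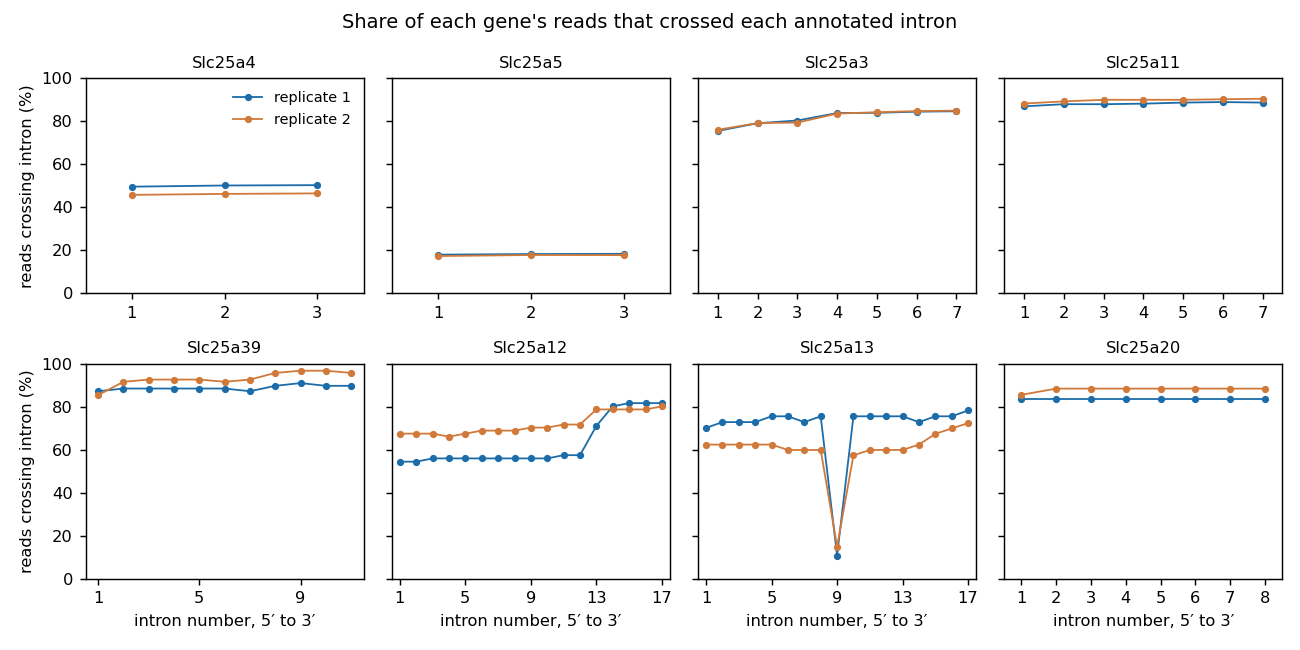
Share of each gene's reads whose model contains each intron of its most read coding transcript, in percent, by intron number from 5′ to 3′, for 8 carriers and both libraries. Lines are flat in Slc25a4 and Slc25a5 at low levels, slope upward toward the 3′ end in Slc25a12, and dip in Slc25a13 at intron 9, where the annotated acceptor was in 10.8% and 15% of the gene's reads.

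The carriers of carnitine and amino acids summed to 191 ± 3.32 CPM. Slc25a20, the carnitine/acylcarnitine carrier that brings long-chain fatty acids to the matrix for oxidation, had 31 reads in replicate 1 and 35 reads in replicate 2 (50.9 ± 1.46 CPM). The enzymes around it, Cpt1a, Cpt1b, Cpt2 and Crat, summed to 994 CPM in replicate 1 and 969 CPM in replicate 2, and 0 of the 4 passed the test between the libraries. Slc25a44, a carrier of branched-chain amino acids, had 47 and 43 reads (69.7 ± 8.35 CPM), but 42 and 41 of these were in the genomic class, 41 in each library at the gene's 3′ end, and only 4 and 2 matched annotated transcripts. The level of Slc25a44 therefore rested on reads without a splice junction. Slc25a29, which carries basic amino acids, and Slc25a38, needed for glycine import for haem synthesis, each had 12 reads in replicate 1 and 15 reads in replicate 2. Slc25a26, the S-adenosylmethionine carrier, had 7 and 11 reads, none of which matched an annotated transcript in full. Slc25a15, the ornithine carrier, had 5 in each library. Slc25a47 had 2 and 3 reads and Slc25a45 had 1 and 2, Slc25a48 had 1 read in replicate 2 only, and Slc25a2 had no listed reads.

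The carriers of cofactors and nucleotides had few reads. Slc25a51, the NAD+ carrier, had 28 reads in replicate 1 and 12 reads in replicate 2, and Slc25a33, a pyrimidine nucleotide carrier, had 6 and 25. Slc25a16 and Slc25a42, both linked to coenzyme A, had 11 and 14 reads in replicate 1 and 15 and 7 reads in replicate 2. Slc25a36, the second pyrimidine nucleotide carrier, had 13 and 6 reads. Slc25a32, known for folate and FAD transport, had 3 and 14, and Slc25a17, a peroxisomal member, had 6 and 9. None of these differences passed the test across all genes, and the adjusted p (exact binomial test, Benjamini-Hochberg) was 0.0729 for Slc25a33, 0.176 for Slc25a51 and 0.272 for Slc25a32.

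Among carriers of iron and glutathione, Slc25a39, needed for mitochondrial glutathione import, had 79 reads in replicate 1 and 97 reads in replicate 2 (136 ± 11.9 CPM) and was the fifth most abundant member. Its close relative Slc25a40 had 4 and 2 reads. Slc25a28, known as mitoferrin 2, had 10 and 24 reads, and Slc25a37, mitoferrin 1, the form of developing red blood cells, had 7 and 4. The red blood cell markers Hba-a1, Hba-a2, Hbb-bs, Hbb-bt and Alas2 were all called higher in replicate 1, and their part in the level of Slc25a37 was not tested.

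The uncoupling-protein-like carriers were the lowest group, at 5.32 ± 2.97 CPM. Slc25a30 had 2 reads in each library, and Slc25a27 and Slc25a14 had 0 reads in replicate 1 and 2 reads and 1 read in replicate 2. Family members under other symbols were more abundant. Mtch1, an outer membrane relative of the carriers, had 161 reads in each library, and Mtch2, of the same kind, had 83 reads in replicate 1 and 115 reads in replicate 2. Ucp2 had 25 and 36 reads and Ucp3 had 5 and 17. Ucp1, the uncoupling protein of brown fat, had 3 reads in replicate 1 and 23 reads in replicate 2, and it was the only member of this list of 5 to be called.

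Of the remaining members, Slc25a46, an outer membrane protein with a part in mitochondrial dynamics, had 18 reads in replicate 1 and 30 reads in replicate 2. Slc25a34 had 11 in each, of which 9 and 8 were in the genomic class. Slc25a35 had 1 and 5 reads and Slc25a53 had 1 in each, while Slc25a43 and Slc25a54 had no listed reads.

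Of 30 Slc25a genes tested, 2 were called between the libraries, beside 2.07% of all genes tested. Slc25a5 was higher in replicate 1 (0.861% of all genes were called in that direction), with 3006 CPM against 2664 CPM in replicate 2, a ratio of 1.13 [1.06 to 1.20] with an adjusted p of 0.0172. This call was lost when total mouse reads served as library sizes (adjusted p = 0.159) and when only annotated transcripts were counted (adjusted p = 0.563). Slc25a1, the citrate carrier, which exports citrate for fatty acid synthesis, was higher in replicate 2 (1.21% of all genes were called in that direction). It had 2 reads in replicate 1 and 32 in replicate 2, or 3.22 and 47.5 CPM, and was 14.8-fold higher in replicate 2 [3.77 to 127] with an adjusted p of 1.46e-05. The other 28 members, among them Slc25a4 with a ratio of 1.01 [0.994 to 1.03], were not called. Of the 30 members, 15 had the higher level in replicate 1 and 15 in replicate 2, and Slc25a4, Slc25a12 and Slc25a13 changed side when total mouse reads served as library sizes. Their median log2 ratio was -0.03 and that of all genes tested was -0.0005.

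Slc25a1 was 1 of 91 genes, or 1.21% of those tested, called higher in replicate 2. Markers of several tissues, fat among them, were called in the same direction. Of 5 fat markers, 4 had reads, and 3 were called higher in replicate 2. Adipoq had 1 read in replicate 1 and 27 in replicate 2, Cfd had 22 and 312, Fabp4 had 357 and 619, Plin1 had 0 and 10, and Lep had no listed reads in either library. The brown fat markers Ucp1 and Cidea were both called higher in replicate 2, with a sum of 119 CPM in replicate 1 against 355 CPM in replicate 2. Cidea made up most of this sum, at 114 and 321 CPM. Airway markers, of which Bpifa1, Scgb1a1 and Scgb3a2 had 0 reads in replicate 1 and Sftpc had none in either library, were higher in replicate 2 as well. The atrial markers Nppa, Myl4, Myl7 and Sln, 4 of 4, were also called higher in replicate 2, between 2.22-fold and 2.70-fold, as were 1 of 4 fibroblast markers (Col3a1) and 1 of 4 macrophage markers (Lyz2). Their part in the level of Slc25a1 was not tested. The genes that work beside the adenine nucleotide and phosphate carriers in ATP synthesis, Atp5a1, Atp5b, Atp5c1, Ppif and Ckmt2, summed to 21230 CPM in replicate 1 and 22715 CPM in replicate 2. Of these 5, 2 were called higher in replicate 2, as were 1.21% of all genes tested, and 0 were called higher in replicate 1. The called genes were Atp5b, the beta subunit of ATP synthase, 1.10-fold higher in replicate 2, and Ckmt2, the mitochondrial creatine kinase of muscle, 1.14-fold higher.

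**Figure D5:**
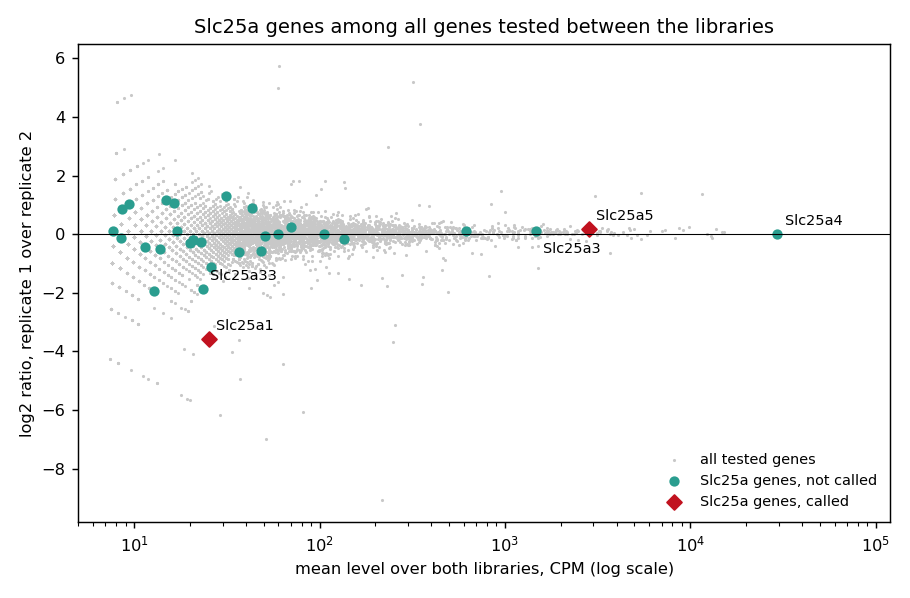
Log2 ratio of replicate 1 over replicate 2 (0.5 reads added to each) against the mean level in CPM on a log axis, for 7545 genes in grey and 30 Slc25a genes in colour; diamonds mark Slc25a5 and Slc25a1, the called members. Members of high level lie close to 0 and the scatter widens toward few reads, as it does for all genes.

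The share of each gene's leading transcript was compared with Fisher's exact test (two-sided) over 4223 genes that had 10 reads or more per library once the genomic class was set aside, and 73 genes, or 1.73%, were called. Of 15 members tested, 1 was called. This was Slc25a4, whose leading model, the single last exon, held a smaller share in replicate 1 (difference of -3.84 percentage points, replicate 1 minus replicate 2, adjusted p = 2.35e-11). Counting annotated transcripts alone leaves this model out, and 0 members were then called. Slc25a4 reads matching annotated transcripts numbered 9135 in replicate 1 and 9017 in replicate 2. Against all annotated-transcript reads they were called higher in replicate 1 (22182 CPM against 20432 CPM, log2 ratio 0.12, adjusted p = 4.23e-06 in the exact binomial test). In Slc25a5, the difference in leading share was -0.537 percentage points and was not called. Incomplete matches as a class took a smaller share in replicate 1 in the other protein-coding genes, at 14.8% in replicate 1 and 17.2% in replicate 2. The leading transcript was an annotated one in 11 of the 15 members and a new model in 3, and in Slc25a22 one of each tied. It took at least 90% of reads outside the genomic class in each library in Slc25a11, Slc25a16, Slc25a29, Slc25a38 and Slc25a51. Except in Slc25a11, these shares rested on few reads, such as 9 of 10 in replicate 1 and 11 of 12 in replicate 2 in Slc25a16. The median leading share was 83.0% in the members and 80.2% in all genes tested.

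By class, 48.8% of family reads in replicate 1 and 45.9% in replicate 2 matched an annotated transcript in full, against 70.3% and 69.0% in the other protein-coding genes. Incomplete matches were 49.2% and 52.2% of family reads. These shares rested on Slc25a4 and Slc25a5. Without both genes, full matches were 72.7% of family reads in replicate 1 and 73.9% in replicate 2, and the genomic class was 16.0% and 15.1%, against 9.64% and 8.51% in the other protein-coding genes. With every gene of at least 20 reads weighted equally, full matches averaged 61.3% in the family and 64.7% in the others. The family had 175 models in replicate 1 and 187 in replicate 2, and 87 of the 275 different ones were found in both. Nearly all full matches, 10804 and 10762 reads, were to protein-coding transcripts, and 25 and 27 were to retained-intron transcripts.

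The members shared a narrow range of coding length. The longest coding sequence of a member was between 800 and 1100 bases in 39 of 47 genes, or 83.0%, against 20.0% of 21842 protein-coding genes. The median was 954 bases in the family and 1176 bases in all. The exceptions above that range were Slc25a12 and Slc25a13, the ATP-Mg/phosphate carriers Slc25a23, Slc25a24 and Slc25a25, and Slc25a46 and Slc25a54, while Slc25a2, at 795 bases, lay just under it.

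Promoter sequences from RefSeq (GRCm38.p6, 250 bases before to 50 after the start) were matched for 36 members with 46 promoters. The motif TNAAGGTCA, the site bound by estrogen-related receptors, was searched on both strands. It was in 0 of the 46, against 1.28% of all 32851 promoters. The binding motif of nuclear respiratory factor 1, searched in the same way, was in 2 of the 46, or 4.35%, against 4.603% of all promoters. It began 214 bases before the start of Slc25a3 and 45 bases before the start of Slc25a31. These are matches of letters in a short window and show neither binding nor its absence.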

How the data were processed

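Long-read counts of 2 heart libraries were used. The deposited tables give, per the file headers, a raw count for every transcript model, and the deposited models give every exon. Per the deposited notes reads were aligned to mm10 with GENCODE M21, and TALON is the source named in the models. Aligner and read filters, not given in the sources used here, could not be described. Models without reads are not listed.

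Known transcripts were matched between libraries by identifier, new spliced models by their chain of introns, and new single-exon models by 50% reciprocal overlap. Reads of control RNAs were left out. Counts of all models of a gene were summed, and CPM used TMM factors from edgeR 4.0.16 (0.986 and 1.01) over genes with at least 10 reads. With 1 group, edgeR gave no contrast, only a common biological coefficient of variation of 0.162, so the libraries were compared by the exact binomial test and Fisher's exact test (scipy 1.17.1). Both tests were checked on simulated counts with counting error as the only spread, so the check does not cover further spread between samples. Sequences came from GENCODE M21 transcripts and RefSeq promoters (GRCm38.p6), copies from blastn 2.17.0 and alignments from Biopython 1.88. Size factors of DESeq2 1.42.0 served as an alternative. The deposited models carry a strand, and no gene overlapping a tested member on the same strand had more than 2 reads in a library.

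Every member was accounted for, with values for the 25 most abundant, all called and those without reads, except 1 member that is counted in the totals and not reported here by name. The members and gene lists were chosen with earlier results of these data known. Protein sequences were not used here.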

Additional observations from a re-analysis of the deposited data

How the results depend on the processing

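The family's summed level kept within its SD with total mouse reads or DESeq2 size factors as library sizes. It was 25373 CPM from known transcripts only and 38025 CPM with the genomic class left out. Over single libraries it was between 34868 and 35687 CPM. The number of all genes called between the libraries was 102 with known transcripts only, against 156, and lay between 129 and 216 otherwise. With at least 50 reads required, 1 member was called and Slc25a1 was not tested; under every other setting 2 members were called. With total mouse reads these were Slc25a1 and Slc25a33 (log2 ratio -1.90, adjusted p = 0.0493), and with known transcripts only Slc25a1 and Slc25a4 (log2 ratio 0.12, adjusted p = 4.23e-06). Of 104 recomputed log2 ratios of members, 96 kept their direction and call, and 4 uncalled ones changed sign; 0 called ones did. With known transcripts only, 0 of 3386 genes and 0 of 12 members were called for their leading share by Fisher's exact test, with 54 and 0 at an unadjusted p under 0.05. With the genomic class included it was 122 of 4765 genes and 2 of 19 members, against 73 of 4223 and 1 of 15; the added member was Slc25a34, whose genomic-class models (9 reads in replicate 1, 8 in replicate 2) start at the same base but, at 502 bases and 1 base, were not matched between the libraries. Exon 3A without 3B was in 80.0% of Slc25a3 reads over all reads of the gene, and its share lay between 96.9% and 97.2% over single libraries. With each gene weighted equally, full matches were 61.3% in the family and 64.7% in the other genes, incomplete matches 12.2% and 12.7%, and the genomic class 18.3% and 13.2%. Without Slc25a4, incomplete matches were 42.9% and the genomic class 7.97% of family reads. Over single libraries, full matches of the family lay between 45.9% and 48.8%, incomplete matches between 49.2% and 52.2% and the genomic class between 1.27% and 1.35%. Leaving out a library allows no test between libraries. No paired analysis was possible because there is 1 group. Members under about 10 reads allow no test, and differences of a few reads were not detectable at this depth.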
